A study of Homo sapiens with 6 samples.

Results

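NEAT1 and MALAT1 are long noncoding RNA (lncRNA) genes that lie beside each other on chromosome 11 and whose RNAs are known to stay in the nucleus. They were taken from the deposited gene tables by their Ensembl identifiers, ENSG00000245532.9_6 for NEAT1 and ENSG00000251562.8_5 for MALAT1, and are 2 of the 62492 genes listed. Both passed the filter on low counts, as did 17000 genes in all. RNA sequencing was carried out on HCT116, an epithelial line from a human colorectal carcinoma, after transfection with a control siRNA (siControl) or an siRNA against NONO (siNONO), each at 20 nM. There were 3 libraries per group, labelled Set 1, Set 2 and Set 3, and each Set held 1 library of each group. The submitters call them biological replicates, but what a Set stands for was not given, so the p-values measure the spread between these libraries. All cells carried an siRNA and came from the same line, and NONO was lowered, not deleted. The libraries were made from poly(A)-selected RNA of whole cells, so where in the cell the RNAs were was not measured. The question addressed was how the levels of these neighbours compared between cells with and without NONO knockdown.

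NEAT1 is the RNA on which paraspeckles are built, nuclear bodies that also hold NONO and its relatives SFPQ and PSPC1. It is made in a short form, which ends at a poly(A) signal and carries a poly(A) tail, and in a long form (NEAT1_2), which is the one that paraspeckles need. MALAT1 is an abundant RNA of nuclear speckles, the bodies that store splicing factors. The long NEAT1 form and MALAT1 have no poly(A) tail of their own. Their 3′ ends are cut by RNase P just before a tRNA-like sequence, and the new end folds with U-rich stretches into a triple helix that protects it.

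The 3′ ends are shown first, because they bear on how such RNAs enter a library that selects poly(A). On GRCh37, NEAT1 spans chr11:65190245-65213011 and MALAT1 chr11:65265111-65275544, both on the plus strand, with a gap of 52.099 kb between them. The last 100 bases before the tRNA-like sequence lie at chr11:65212912-65213011 for NEAT1 and at chr11:65273488-65273587 for MALAT1. Capitals mark the last 11 bases, which are the same in both, and the longest other run that both share, of 16 bases, which ends 41 bases before the cut in NEAT1 and 36 bases before it in MALAT1:
NEAT1: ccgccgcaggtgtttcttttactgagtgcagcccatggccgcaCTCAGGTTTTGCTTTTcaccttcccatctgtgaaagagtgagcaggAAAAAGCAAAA
MALAT1: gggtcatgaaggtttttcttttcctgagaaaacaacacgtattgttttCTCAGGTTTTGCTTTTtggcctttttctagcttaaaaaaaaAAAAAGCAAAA

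The first 60 bases of the tRNA-like sequence follow directly, at chr11:65213012-65213071 and chr11:65273588-65273647, with GGGGTTC in capitals, a run that both hold:
NEAT1: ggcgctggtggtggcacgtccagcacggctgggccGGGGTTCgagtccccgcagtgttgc
MALAT1: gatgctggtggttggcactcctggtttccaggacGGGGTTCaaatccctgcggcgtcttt

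The short NEAT1 form ends earlier, close to the AATAAA in capitals, the hexamer of a poly(A) signal, whose first base is base 3730 of the gene (chr11:65193949-65194008):
NEAT1 short form: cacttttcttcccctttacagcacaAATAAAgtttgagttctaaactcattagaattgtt

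Runs of adenine inside an RNA can also be caught by poly(A) selection. Between the start of NEAT1 and its cut lie 5 runs of 10 or more adenines, none of them within the short transcripts, and MALAT1 has 1 such run, of 13 adenines, which ends 6 bases before its cut. The longest of those in NEAT1 holds 22 adenines and lies in the part found in the long form alone (chr11:65208294-65208355, the run in capitals):
NEAT1 long form: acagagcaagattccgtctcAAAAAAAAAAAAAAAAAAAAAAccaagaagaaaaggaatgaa

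For the long form the study used a primer pair, which matched chr11:65211459-65211478 on the plus strand and chr11:65211530-65211549 on the minus strand. Their product of 91 bases starts at base 21215 of NEAT1, while the short transcripts end by base 3740, so the product belongs to the long form:
NEAT1_2 forward primer: ggccagagctttgttgcttc
NEAT1_2 reverse primer: ggtgcgggcacttacttact

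**Figure D1:**
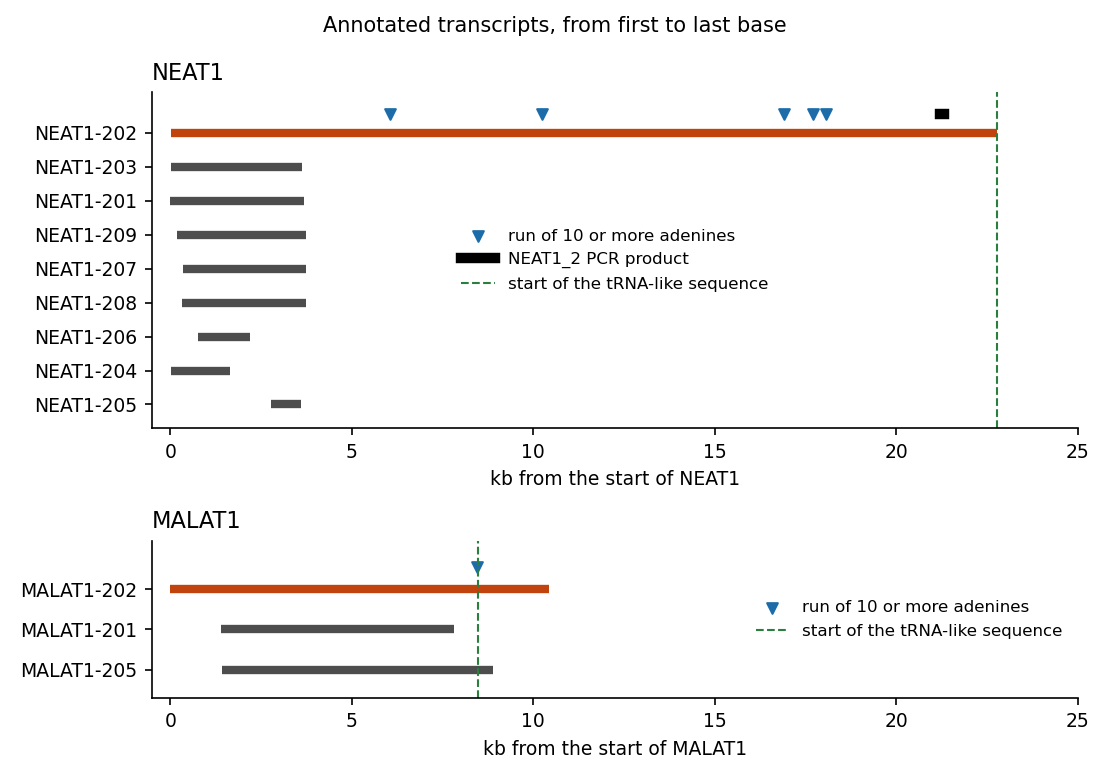
Annotated transcripts of NEAT1 (all 9 listed in the deposited table) and of MALAT1 (the 3 longest whose identifiers are listed, in an earlier version), drawn from first to last base without introns, in kb from the gene's start. The longest transcript is in orange, triangles mark runs of 10 or more adenines, the black bar marks the 91-base PCR product and the dashed line marks the tRNA-like sequence; all 5 runs in NEAT1 lie beyond the short transcripts, and the 1 run in MALAT1 lies at the cut.

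The depth was examined first. The estimated counts of the siControl libraries summed to 32659002, 27491389 and 21765393 in Sets 1, 2 and 3, and those of the siNONO libraries to 28715263, 28260060 and 27946591. NONO, the targeted gene, had 496, 495 and 516 CPM (counts scaled to library size and composition) in siControl and 89.5, 95.5 and 100.4 CPM in siNONO. The ranges were far apart and 18.9% of the siControl level was left. The log2 fold change was -2.40 (SE 0.0337, adjusted p = 2.47e-13), tested on counts by edgeR's quasi-likelihood method, blocked by Set and adjusted by Benjamini-Hochberg. Libraries of a group varied beyond counting noise, most of all siNONO of Set 3 against siNONO of Set 1, with a chi-square of 9.93 per degree of freedom over genes.

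NEAT1 rose on NONO knockdown. It had 324, 273 and 279 CPM in siControl and 643, 623 and 634 CPM in siNONO, in Sets 1, 2 and 3, from estimated counts of 10682, 7478 and 6128 and of 18386, 17322 and 17721. Each siNONO library stood far above each siControl library, and the siNONO libraries lay closer to each other than the siControl libraries did. The mean was 292 ± 27.9 CPM in siControl and 633 ± 9.97 CPM in siNONO (SD, n = 3), a 2.17-fold difference. The log2 fold change was 1.12 (SE 0.0390, adjusted p = 3.77e-10 by edgeR). Within Sets 1, 2 and 3 the CPM differed by 0.99, 1.19 and 1.18 on the log2 scale, so the rise was somewhat smaller in Set 1, whose siControl library was the highest of its group. With a Set 3 library left out, the log2 fold change was 1.09. An exact permutation test over the 6 libraries gave p = 0.1, two-sided, the smallest that 3 against 3 allows.

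The rise was set against that of all genes, since NONO knockdown moved many of them. By the same test 46.6% of the genes tested changed, 23.2% upward and 23.4% downward, so passing it does not by itself set a gene apart. CPM ranges that did not overlap, with siNONO above, were found for 23.9% of genes, and with siNONO below for 24.0%. Of the 2248 lncRNA genes tested 6.98% rose and 10.3% fell, and of the 13631 protein-coding genes 27.1% and 26.7%, with no test of the difference and many lncRNAs at few counts. The shares are smaller in the other fits that counts are given for further on. Without the block 18.2% of all genes rose and 18.0% fell, with DESeq2 17.3% and 17.4% of the 15022 with an adjusted p, with limma on log2(TPM + 1) 7.37% and 17.4%, and with limma on log2(TPM + 0.1) 5.38% and 12.8%. With 1 library left out 18.7% to 22.2% rose and 17.8% to 21.8% fell. The log2 fold change of NEAT1 was the 241st highest of 17000, at a percentile of 98.6, and the 41st highest among the lncRNA genes. Among the 214 genes with at least its average CPM it was the highest, ahead of ADAM19, a membrane metalloprotease, at 1.09, and CFL1, the actin-severing protein cofilin, at 1.02. By TPM, which divides by length, NEAT1 ranked 804, 964 and 882 among all genes in siControl and 334, 362 and 297 in siNONO.

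**Figure D2:**
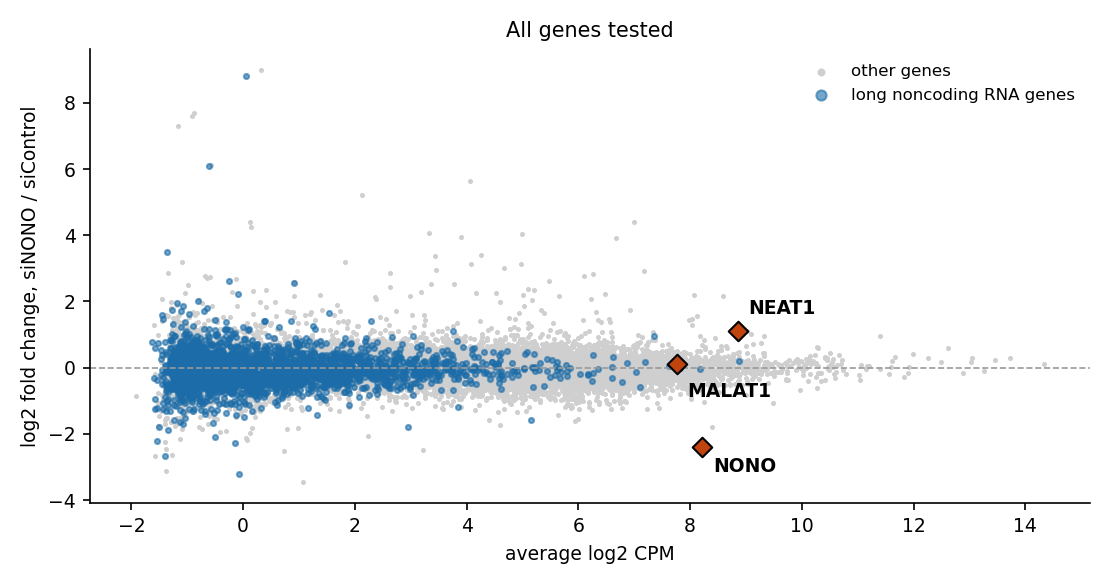
The log2 fold change of siNONO over siControl (y axis) against the average log2 CPM (x axis) for the 17000 genes tested, with lncRNA genes in blue and the others in grey. NEAT1 lies at 1.12, the highest of the genes of at least its abundance but close to the next, ADAM19, at 1.09. MALAT1 lies close to 0 on these counts, and NONO lies at -2.40.

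The difference in MALAT1 was small, and its direction depended on the measure. It had 224, 207 and 195 CPM in siControl and 236, 234 and 209 CPM in siNONO, from estimated counts of 7397, 5669 and 4281 and of 6757, 6499 and 5831. The groups overlapped, since siNONO of Set 3 lay below siControl of Set 1, but within each Set the siNONO library was the higher, by 0.07, 0.17 and 0.10 on the log2 scale. The mean was 209 ± 14.8 CPM in siControl and 226 ± 15.3 CPM in siNONO (SD, n = 3), a 1.08-fold difference (exact permutation test, two-sided, p = 0.2). With the Set as a block the log2 fold change was 0.11 (SE 0.0319, adjusted p = 0.0103 by edgeR). Without the block it was 0.11 with an adjusted p of 0.192 by the same test, which then called 36.3% of genes. Without siControl of Set 2 the adjusted p was 0.108, and without siNONO of Set 2 it was 0.153. A rise of 0.11 placed MALAT1 at rank 5915 of the 17000 genes tested.

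On TPM the sign of the MALAT1 difference was the opposite. The TPM of MALAT1 was 103.7, 107.6 and 87.0 in siControl and 97.3, 100.3 and 72.7 in siNONO, lower in siNONO within each Set by 0.09, 0.10 and 0.26 on the log2 scale. By TPM it ranked 1290, 1229 and 1621 among all genes in siControl and 1329, 1259 and 1893 in siNONO. The groups overlapped here too, with means of 99.4 ± 10.96 and 90.1 ± 15.2 TPM (SD, n = 3), and limma on log2(TPM + 1) gave -0.15 with an adjusted p of 0.161, in a fit that called 24.7% of genes. TPM differs from CPM in the effective length, the abundance-weighted transcript length that RSEM divides by, and in the scaling between libraries. The effective length of MALAT1 was 3088, 2658 and 3190 bases in siControl and 3254, 3023 and 3810 bases in siNONO, a mean of 2979 ± 282 against 3362 ± 405 bases (SD, n = 3, exact permutation test, two-sided, p = 0.4). It was longer in siNONO within every Set, by 0.17 on the log2 scale on average. Of 14392 tested genes with several transcripts, 12.9% showed a larger shift in either direction, and the median shift was 0.0433. Beside this length term, the scaling lowered the TPM of siNONO against CPM by the same amount for NEAT1, MALAT1 and NONO, with terms of -0.09, -0.09 and -0.10 on the log2 scale in Sets 1, 2 and 3. For MALAT1 the mean CPM difference less the length term came to -0.06, and with the scaling term to -0.15. The length term rests on how RSEM split the reads among the 17 listed transcripts, which the gene tables do not show. For NEAT1 the choice of measure mattered little: its TPM was 150.2, 129.2 and 143.8 in siControl and 298.9, 273.5 and 330.7 in siNONO, a 2.13-fold difference with ranges apart.

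**Figure D3:**
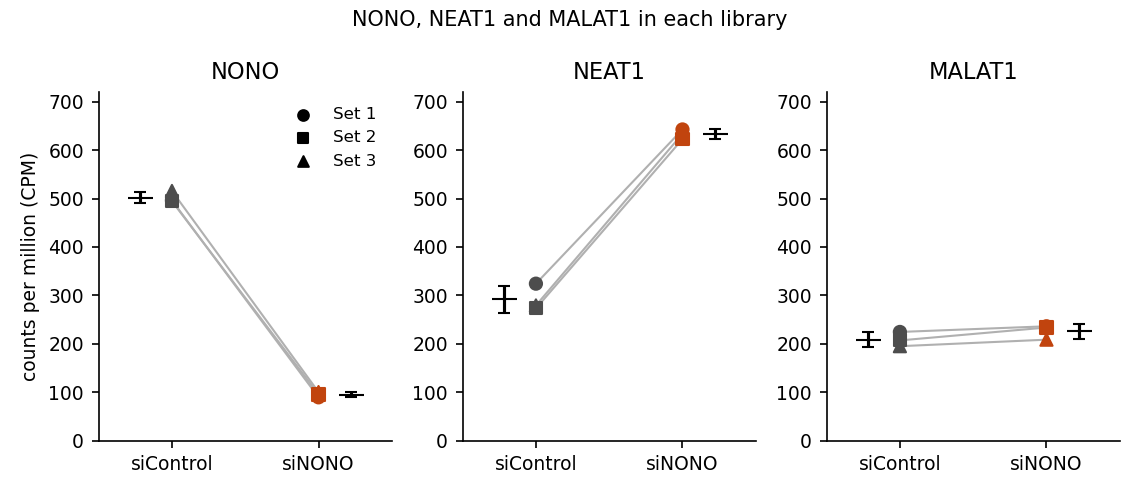
CPM (y axis) of NONO, NEAT1 and MALAT1 in the 6 libraries, with grey lines joining the libraries of a Set and bars giving the mean and SD of each group (n = 3). NONO falls to 18.9% of its level, NEAT1 goes from between 273 and 324 to between 623 and 643, and the MALAT1 groups overlap on this measure, their difference having the opposite sign on TPM.

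**Figure D4:**
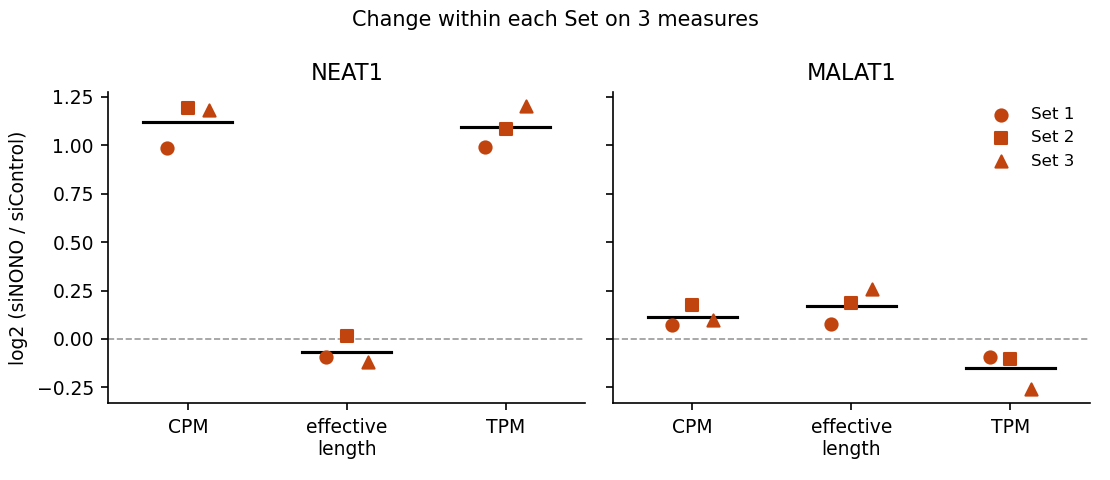
The log2 ratio of siNONO to siControl (y axis) within each Set for CPM, effective length and TPM, with the mean of the 3 Sets as a black line. NEAT1 lies near 1 on CPM and on TPM, while MALAT1 lies above 0 on CPM in every Set and below 0 on TPM in every Set, with an effective length above 0.

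The neighbours were next compared within each library, where scaling between libraries plays no part. Per length, NEAT1 RNA exceeded MALAT1 RNA in all 6 libraries. The ratio of their TPM was 1.45, 1.201 and 1.65 in siControl and 3.07, 2.73 and 4.55 in siNONO. The lowest siNONO ratio was above the highest siControl ratio, and siNONO of Set 3 had the highest of all. On the log2 scale the ratio was higher in siNONO by 1.24, with differences of 1.08, 1.18 and 1.46 in Sets 1, 2 and 3 (SD 0.195). The exact permutation test gave p = 0.1 and the exact sign-flip test over the Sets p = 0.25, both two-sided and both the smallest these designs allow. With counts in place of TPM the difference was 1.00, from ratios of 1.44, 1.32 and 1.43 in siControl and 2.72, 2.67 and 3.04 in siNONO. On either measure the change in the ratio was larger than its spread between Sets.

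Whether the rise of NEAT1 lay in its short or its long form could only be bounded. The long transcript measures 22743 bases and the next longest 3524, so the mean length that RSEM reports per gene bounds the long form's share. That mean was 3278, 3125 and 2960 bases in siControl and 3091, 3160 and 2749 bases in siNONO, or 3121 ± 159 against 3000 ± 220 bases (SD, n = 3). The groups overlapped (exact permutation test, two-sided, p = 0.6), and the sign of the difference rested on siNONO of Set 3, without which siNONO was longer by 4.1 bases. If all other copies were the shortest listed transcript, of 512 bases, the long form could be at most 12.4%, 11.8% and 11.01% of NEAT1 copies in siControl and 11.6%, 11.9% and 10.1% in siNONO. Such a bound is wide in reads: at it the long form would hold from 89.1% to 91.2% of the counts. The gene tables therefore do not settle which form the added NEAT1 reads came from.

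Other RNAs that lack a tail, or that a change in library make-up would move, were examined beside NEAT1. Across all lncRNA genes the share of counts was 1.08% ± 0.0224 in siControl and 1.08% ± 0.0105 in siNONO (SD, n = 3, exact permutation test, two-sided, p = 1.0). Within that share, NEAT1 and MALAT1 together took 4.65% ± 0.323 in siControl and 7.87% ± 0.0973 in siNONO. A list of RNAs known to be made mostly without a poly(A) tail held 30 names. It covered small nuclear RNAs, the 7SL RNAs of the signal recognition particle and replication-dependent histone mRNAs, among others. Of the list's names 21 matched a gene, and 8 of those were at 0 in every library. Its summed level, scaled to total counts alone, was 54.3, 53.0 and 56.9 CPM in siControl and 49.96, 46.7 and 53.6 in siNONO, with RN7SL2 the most abundant. The groups overlapped, and within each Set the siNONO library was the lower. Of its 6 members tested, 2 fell and 0 rose by edgeR, beside 23.4% and 23.2% of all genes, with a median log2 fold change of 0.04. At an unadjusted p under 0.05 the rises were also 0 by edgeR and by DESeq2, while 1 rose with limma on either TPM scale or without either library of Set 2. RN7SL2 fell by 0.29 and the histone gene H2BC4, at 7 to 18 counts per library, by 1.13 on the log2 scale. The other 4 did not pass, with values of 0.80 for SNORD3A, 0.21 for H2BC12, 0.07 for H2AC6 and 0.01 for H1-2. The 6 tested were thus RN7SL2, SNORD3A and histone genes. Whether their reads came from RNA without a tail was not measured. H2BC4 did not pass with any 1 library left out (adjusted p from 0.0665 to 0.159 by edgeR), nor RN7SL2 with limma on log2(TPM + 0.1) (adjusted p = 0.0695). Mitochondrial genes took 8.93% ± 0.191 of counts in siControl and 10.2% ± 0.619 in siNONO (exact permutation test, two-sided, p = 0.1, the smallest possible), and their part in the NEAT1 result was not tested.

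The other genes of the region were measured to see how the pair compared with its surroundings. Of 87 genes listed within 500 kb, 57 were tested, of which 21 (36.8%) rose and 8 (14.0%) fell, beside 23.2% and 23.4% of all genes, and their median log2 fold change was 0.11. Without the block 4 of the 57 fell. Leaving out siControl of Set 1, siControl of Set 2 or siNONO of Set 1 gave 4, 5 and 4. With limma on log2(TPM + 1), 5 of the 57 rose and 5 fell, where 7.37% and 17.4% of all genes did.

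Close to the pair, changes were small. Among the 5 nearest tested genes on each side, LTBP3, which binds latent TGF-β, rose by 0.35 (adjusted p = 1.75e-06 by edgeR) and ZNRD2 by 0.36 (adjusted p = 0.000424 by edgeR) on the log2 scale. Both lie after MALAT1. With limma LTBP3 did not pass on log2(TPM + 1) or log2(TPM + 0.1) (0.263 and 0.265, adjusted p = 0.0619 and 0.0928), nor ZNRD2 on the latter (0.296, adjusted p = 0.0644). Of these neighbours 7 did not pass: FRMD8, the nearest before NEAT1, had a log2 fold change of 0.11, DPF2, a chromatin-remodelling subunit, 0.10, SLC25A45 0.12, TIGD3 0.13, ENSG00000285816 0.18, FAM89B -0.05 and ZNRD2-DT -0.17. Between the neighbours a single gene was tested, FAUP4, a pseudogene whose reads could be shared with its parent FAU, at 0.24 (adjusted p = 0.0721 by edgeR). The call depended on 1 library in some: DPF2 passed without either library of Set 3 (0.158 and 0.155) and ENSG00000285816 without either of Set 2 (0.393 and 0.382). Rises close to that of NEAT1 or above it appeared farther away, at BATF2, a transcription factor of the interferon response, at 3.37, at CFL1 at 1.02 and at OVOL1, an epithelial transcription factor, at 0.91, which were picked here after their values were seen. CFL1, with 354, 357 and 365 CPM in siControl and 703, 721 and 761 CPM in siNONO, is about as abundant in counts as NEAT1.

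**Figure D5:**
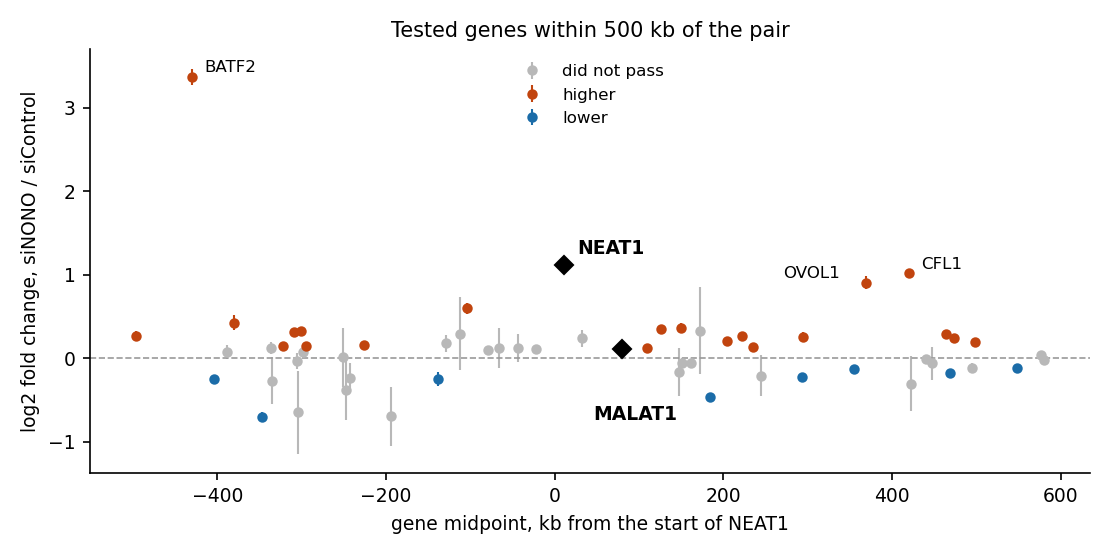
The log2 fold change of siNONO over siControl (y axis, with its standard error) for the 57 tested genes within 500 kb, by the distance of their midpoints from the start of NEAT1 in kb (x axis). The nearest genes lie between -0.17 and 0.36 on the log2 scale and NEAT1 at 1.12, while BATF2, CFL1 and OVOL1 lie farther away; the sign of MALAT1 is the opposite on TPM.

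The proteins that work with these RNAs were then described by lists. Of 34 paraspeckle proteins tested, 26 fell, NONO included, and 4 rose, beside 23.4% and 23.2% of all genes. The median log2 fold change was -0.20, beside -0.00479 over all genes tested. On log2(TPM + 0.1) with limma 13 fell and 1 rose, and 2 rose without either library of Set 1. HNRNPR, an RNA-binding protein, had the lowest value after NONO, at -0.59 (adjusted p = 1.78e-08 by edgeR). SFPQ and PSPC1, the relatives of NONO that dimerize with it, were among the genes that rose, by 0.22 and 0.65 on the log2 scale (adjusted p = 4.76e-05 and 2.61e-08 by edgeR). SFPQ did not pass with limma on log2(TPM + 1) or log2(TPM + 0.1) (0.16 on both, adjusted p = 0.104 and 0.132), and PSPC1 passed on both. PSPC1 had 61.3, 60.5 and 64.4 CPM in siControl and 95.3, 96.7 and 99.8 CPM in siNONO, with the groups well apart. Of 20 nuclear speckle proteins, the partners of MALAT1, 15 fell and 2 rose, beside the same shares of all genes, with a median of -0.19, and on log2(TPM + 0.1) with limma 4 fell and 0 rose (1 at an unadjusted p under 0.05). RNPS1, a splicing activator, fell by 0.81 and SRSF2 by 0.38, while PNN rose by 0.38 on the log2 scale, and ACIN1 rose by 0.19 on counts but stood at -0.00261 on log2(TPM + 1). PNN did not pass on log2(TPM + 0.1) with limma (0.236, adjusted p = 0.0685).

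Factors that make the 3′ ends shown above were read by kind. By edgeR more of those at poly(A) signals fell than rose. More of those of RNase P, RNase Z and the triple helix rose than fell. Of 20 factors that cut and polyadenylate at poly(A) signals, 11 fell and 4 rose, beside 23.4% and 23.2% of all genes, with a median of -0.13. The falls numbered 7 without the block, with DESeq2 or without either library of Set 1, and with limma 6 fell on log2(TPM + 1), 3 fell on log2(TPM + 0.1) and 0 rose on either (1 on each at an unadjusted p under 0.05), while 3 rose with DESeq2. The lowest were NUDT21, a subunit of cleavage factor I, at -0.47, and CSTF3, of the cleavage stimulation factor, at -0.41, and the highest CLP1 at 0.40 and CPSF1 at 0.27, the last with a value of -0.0169 on log2(TPM + 1). With limma CLP1 did not pass on log2(TPM + 1) or log2(TPM + 0.1) (adjusted p = 0.0818 and 0.118), nor CSTF3 on the latter (adjusted p = 0.0589). NUDT21 had 218, 211 and 190 CPM in siControl and 154, 159 and 135 CPM in siNONO, apart. Its partners CPSF6 and CPSF7, named here after their values were seen, fell by 0.20 and 0.16 on the log2 scale. NUDT21, CPSF6 and CPSF7 are also counted among the falls of the paraspeckle proteins above. Cleavage factor I is known to promote use of the poly(A) signal of the short NEAT1 form. Of 13 tested factors of RNase P, RNase Z and the triple helix, 5 rose and 1 fell, beside 23.2% and 23.4% of all genes, and the median was 0.07. The rises numbered 3 without the block, with DESeq2 or without either library of Set 2, and 1 with limma. METTL16, which binds the MALAT1 triple helix, rose by 0.40 and RPP40, an RNase P subunit, by 0.43 on the log2 scale, POP5 by 0.18 and RPP14 fell by 0.15, the last 2 of which did not pass without the block (adjusted p = 0.0782 and 0.0817 by edgeR), with DESeq2, with limma or without either library of Set 2, nor RPP14 without either of Set 1 or POP5 without either of Set 3. POP5 also did not pass when scaled by library size alone (adjusted p = 0.0650 by edgeR), nor RPP14 with no filter on low counts (adjusted p = 0.0673 by edgeR). METTL16 did not pass with limma on TPM (0.267 and 0.2804, adjusted p = 0.0629 and 0.0914).

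Transcription factors known to act at the NEAT1 promoter were read in the same way. Of 8 tested, 5 rose and 2 fell, beside 23.2% and 23.4% of all genes, with a median log2 fold change of 0.15. Without the block 3 rose and 1 fell, with limma on log2(TPM + 1) 2 rose and 1 fell, on log2(TPM + 0.1) 1 rose and 1 fell, and without siControl of Set 3, 1 fell. STAT3, which carries cytokine signals to the nucleus, rose by 0.56 on the log2 scale (adjusted p = 5.19e-08 by edgeR). BRCA1 fell by 0.44 and HIF1A by 0.12 on the log2 scale, the latter with an adjusted p of 0.0117 by edgeR, or 0.119 without the block. HIF1A also missed the threshold with limma (adjusted p = 0.350 and 0.391) and without siControl of Set 3 (-0.0748), siControl of Set 2 or siNONO of Set 2 (adjusted p = 0.0542, 0.0818 and 0.0556 by edgeR), and stood at -0.0778 without siNONO of Set 3.

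Other well-known lncRNAs went both ways. Of 27 tested, 6 rose and 9 fell, with a median of -0.03. Among all genes tested 23.2% rose and 23.4% fell. Among all lncRNA genes tested, many of them at few counts, 6.98% and 10.3% did. The falls numbered 5 without siControl of Set 2, 5 with DESeq2, and 5 and 4 with limma on TPM, and 3 rose on log2(TPM + 1). UCA1, a lncRNA of epithelial cancers, rose by 0.96 and MIR31HG, the host of miR-31, by 0.94 on the log2 scale, each slightly less than NEAT1. DLEU2, the host of the miR-15a/16-1 cluster, fell by 1.19 and FTX, a lncRNA of the X-inactivation center, by 0.58 on the log2 scale. UCA1 had 118, 109 and 106 CPM in siControl and 232, 216 and 200 CPM in siNONO, with the groups apart. NORAD, the most abundant of the list in counts, had 301, 296 and 283 CPM in siControl and 294, 295 and 262 CPM in siNONO, which overlapped, and did not pass (log2 fold change -0.05, adjusted p = 0.231 by edgeR).

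Markers of the cell type were examined as a check of the label. The epithelial markers EPCAM and KRT8 were plentiful, with EPCAM at 203, 192 and 178 CPM in siControl and 248, 247 and 220 CPM in siNONO. Of 8 epithelial markers tested 4 rose, beside 23.2% of all genes, among them CLDN7, a tight junction protein, by 1.09, EPCAM by 0.32 and KRT19 by 0.14 on the log2 scale, and the other 4 did not pass, though 1 of them fell without either library of Set 3. KRT19 was 0.0819 and 0.0788 without siControl and siNONO of Set 3, and did not pass with limma on log2(TPM + 1) or log2(TPM + 0.1) (0.0448 and 0.0449, adjusted p = 0.651 and 0.671). With limma on the latter 2 of the markers rose, and EPCAM did not pass (adjusted p = 0.0712). CDH17 and VIL1, markers of intestinal epithelium, had at most 8 counts in any library. Of 10 markers of other cell types, PTPRC and CD3E had at most 1 count in a library and COL1A2 was at 0 in all, which allows 3 counts. Scaled in the same way, the list summed to 43.9, 39.3 and 47.0 CPM in siControl and 47.5, 45.7 and 53.1 in siNONO, most of it COL1A1. ACTA2, smooth muscle actin, was the gene of that list that rose, by 1.303 on the log2 scale, and the part of these markers in the NEAT1 result was not tested.

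The genes whose levels ran most like each member were found last, as those with the smallest root mean square difference of centred log2 CPM over the 6 libraries, among 13339 genes whose average log2 CPM reached 1. For NEAT1 they were TNFRSF10C (0.0559), a decoy receptor for TRAIL, DIRAS3, SAMHD1, a nucleotide hydrolase that restricts viruses, STAT4 and TDRD7, whose log2 fold changes ran from 1.03 to 1.19. For MALAT1 they were ZNF33A (0.0101), CHPT1, NUP42, WSB1 and ATP6AP2, with log2 fold changes from 0.10 to 0.14. All 10 are protein-coding, and the likeness is a description over 6 libraries that share the same knockdown.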

How the data were processed

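Estimated counts, TPM and effective lengths were deposited by the authors per library and gene. Per the methods, reads were trimmed with sickle and aligned with STAR (GENCODE version 34, GRCh37), and RSEM (version 1.3.1) gave the deposited expected counts, which are not normalized, and TPM, scaled for length. Lengths were taken as deposited, and FPKM was not used. The RSEM strand setting was not given in the sources used here, so RNA from the opposite strand cannot be told apart. Counts were rounded and tested with edgeR (version 4.0.16, quasi-likelihood F-test in the edgeR 3 form), TMM, filterByExpr and blocking by Set, and p-values were adjusted by Benjamini-Hochberg over 17000 genes. The biological coefficient of variation was 3.51%. Set numbers were taken to pair the libraries. Deviations from group means correlated at 0.534, 0.284 and 0.573 within Sets 1, 2 and 3. Between Sets the values ran from -0.521 to 0.222. The highest were 0.222 for siControl of Set 1 with siNONO of Set 2 and 0.176 for the reverse. The pairing within Set 2 was thus not clearly set apart from a mismatch with Set 1. Coordinates, gene names and sequences came from GRCh37 with GENCODE version 44, and primers from the study's primer list. On simulated counts for siNONO against siControl (16746 genes), 82.5% of 97 genes changed by 1 on the log2 scale were recovered. Of 100 genes changed by 0.5, 68% were, and 2 calls were false. The simulation held no Set effect and changed a far smaller share of genes than the 46.6% called here. Its rates therefore need not hold for the real comparison. Members and lists were chosen with earlier results of these data known. Genes named are NONO, the members, the 5 nearest tested genes on each side, the 2 highest and 2 lowest passing genes of each of 9 lists, SFPQ, PSPC1 and the 5 genes most alike to each member. The values of some genes that this rule takes are not reported here. Alternatives were other scalings and filters, no block, the edgeR 4 form, DESeq2 (version 1.42.0), limma (version 3.58.1) on TPM and each library left out.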

Additional observations from a re-analysis of the deposited data

How the results depend on the processing

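The NEAT1 rise kept its direction and passed the threshold under all 16 alternatives, with log2 fold changes from 1.09 to 1.19 and adjusted p-values of at most 0.0227, and the NONO fall did likewise, from -2.42 to -2.22. MALAT1 lost its call with no replicate block (0.11, adjusted p = 0.192 by edgeR) and took the opposite sign on TPM with limma, at -0.15 with a pseudocount of 1 (adjusted p = 0.161) and -0.15 with 0.1 (adjusted p = 0.195). With 1 library left out it ran from 0.0866 to 0.140 and did not pass without siControl or siNONO of Set 2 (0.0970 and 0.0866). The other scalings and filters left MALAT1 past the threshold. The NEAT1 to MALAT1 difference on the log2 scale was 1.00 on counts and from 1.02 to 1.39 with 1 library left out. The difference in NEAT1 mean length ran from -201.78 to 4.1 bases, positive without siNONO of Set 3.

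The 7924 changed genes became 5206 with DESeq2, 4206 with limma on log2(TPM + 1) and 3083 on log2(TPM + 0.1), of which 2596, 1253 and 914 rose. Rises were 49.7% of the calls by edgeR and 29.8% by limma on log2(TPM + 1), where the median of all genes was -0.07. In the 500 kb region the 21 rises among 57 genes became 5 and 4 with limma. Narrower and wider windows hold other numbers of genes, with 9 rises and 3 falls among 28 within 250 kb (32.1% and 10.7%) and 30 and 14 among 86 within 1 Mb (34.9% and 16.3%), against 36.8% and 14.0% within 500 kb. Its 8 falls became 4 with no replicate block, 4 with DESeq2, 5 and 3 with limma and 4 to 7 with 1 library left out. Over all lists, 31 rises became 13 and 11 with limma and 63 falls became 25 on log2(TPM + 0.1). Single genes that changed sign were ACIN1 (-0.00261 and -0.00262), CPSF1 (-0.0169 and -0.0170) and FRMD8 (-0.00120 and -0.00103) with limma, TIGD3 without siControl or siNONO of Set 1 (-0.0348 and -0.0368, from -0.0368 to 0.374 over the libraries left out), ZNRD2-DT without those of Set 3 (0.0538 and 0.0519, from -0.418 to 0.0538) and FAM89B without those of Set 2 (0.0283 and 0.0179, from -0.122 to 0.0283), on the log2 scale. Leaving out the replicate block ended no call of a named gene other than those given in the text. Leaving out a library removes its Set from the blocked comparison. SLC25A45 ran from 0.0015 to 0.308, ENSG00000285816 from 0.0523 to 0.393 and DPF2 from 0.0651 to 0.158 with 1 library left out. TPM differs from CPM in effective length and in scaling, and the cause of the other changes was not tested.

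With 3 libraries per group an exact test over samples cannot fall below 0.1. Depth was ample for both members, at 4281 counts or more, and limits the low genes of the region and the RNAs without a tail.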
